A study of Mus musculus with 6 samples.

Results

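Serum response factor (SRF) and 9 genes whose products work with it were followed in mouse cardiomyocytes (CMs) that overexpressed SRF. The 10 genes were chosen by name from the 23337 genes of the table, by the known roles of their products: Srf itself, the myocardin family (Myocd, Mkl1 and Mkl2), the ternary complex factors (Elk1, Elk3 and Elk4) and the partners Hopx, Abra and Fhl2. Srf and 9 of 9 partners were found and passed the filter on low counts.

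SRF binds DNA as a dimer at the CArG box and activates little on its own. Myocardin and the myocardin-related factors MKL1 and MKL2 (also named MRTF-A and MRTF-B) bind SRF and drive muscle and cytoskeletal genes, while the Ets-domain ternary complex factors bind it at immediate early genes and compete with the myocardin family. Monomeric actin holds the MKL factors in the cytoplasm, and ERK phosphorylation activates the ternary complex factors.

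Wildtype mice of mixed background received virus at postnatal day 1, at 5e8 viral genomes per g of body weight, and GFP+ CMs were sorted at postnatal day 14. The SRF-OE group received AAV9-cTNT-SRF-2A-GFP and the GFP group AAV9-cTNT-GFP, so both groups expressed GFP, from the cardiac troponin T promoter, in a mosaic of CMs. The labels list 3 libraries per group, described as biological replicates. In the table, the first column is headed Chr but holds gene symbols, and the column under the name of SRF-OE replicate 1 holds gene lengths and not counts. Read as labelled, this left 2 SRF-OE and 3 GFP libraries (SRF-OE2, SRF-OE3 and those labelled GFP1, GFP2 and GFP3) of 14137433 to 23159631 counts. Nothing else ties the libraries to animals, so the p-values measure the spread between these samples. Srf in the library labelled GFP1 stood close to the lower SRF-OE value and apart from the other GFP libraries, so the results for the 10 genes are given with the 5 libraries as labelled and without that library. The header leaves a doubt about the names themselves: if they stand 1 column off, the column labelled GFP1 holds an SRF-OE library, and the groups are 3 SRF-OE and 2 GFP libraries. Every mean, fold and p of the 5 libraries rests on the names as given, while the other 4 libraries keep their groups in either reading. No library was moved to another group, and a header error and another reason for this Srf level cannot be told apart here. That library was set apart for its Srf value, so p-values without it are conditional on that choice, for Srf most of all. CPM here are counts per 1e6 of the library size over genes past the filter, scaled by a TMM (trimmed mean of M values) factor. Summed over 8 CM markers, such as Tnnt2 and Myh6, the libraries held 73062 to 116876 CPM. They held 384 to 977 CPM over 12 endothelial, 307 to 821 CPM over 8 fibroblast and 779 to 1654 CPM over 9 smooth muscle and pericyte markers. Of the defining markers, none of the CM, endothelial, smooth muscle or fibroblast genes was at 0 in any library. The sums were 13.0 to 38.6 CPM over 8 leukocyte markers and 0.523 to 6.65 CPM over 4 red blood cell markers, with Hba-a1 and Hba-a2 at 0 throughout. In bulk RNA, fewer cells of a type and less RNA per cell cannot be told apart.

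The promoters of Srf, Hopx and Fhl2 are shown first because they hold the DNA element that SRF itself recognises. RefSeq start sites (GRCm38.p6) matched 8 of the 10 genes, Myocd and Abra being the others, and gave 15 windows from 250 bases before to 50 bases after a start. An exact CArG box was found in 4 of the 15 windows, from 3 of the 8 genes, while 1.63% of all 32851 windows of this length hold one. The exact sequence CCGGAA, called the Ets core here, was searched on both strands. It lay in 4 of the 15 windows, from 3 of the 8 genes, and in 14.9% of all windows. The first and second Mkl2 windows overlap and share the same match. No CCGGAA match overlapped a CArG box. The shorter GGAA was not searched, and it overlaps the end of a CArG box in the Srf and Hopx sequences below. Each line gives the 250 bases before the start, 5′ to 3′ on the minus strand, at chr17:46556163-46556412 for Srf, chr5:77115124-77115373 for Hopx, and chr1:43196762-43197011 and chr1:43163962-43164211 for the first and second Fhl2 start. Capitals mark CArG boxes, and in Srf also the Ets core.
Srf: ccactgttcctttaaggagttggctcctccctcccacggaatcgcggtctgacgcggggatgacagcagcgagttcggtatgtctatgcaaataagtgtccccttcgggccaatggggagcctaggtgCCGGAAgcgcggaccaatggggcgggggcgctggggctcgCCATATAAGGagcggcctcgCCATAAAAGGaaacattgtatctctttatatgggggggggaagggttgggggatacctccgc
Hopx: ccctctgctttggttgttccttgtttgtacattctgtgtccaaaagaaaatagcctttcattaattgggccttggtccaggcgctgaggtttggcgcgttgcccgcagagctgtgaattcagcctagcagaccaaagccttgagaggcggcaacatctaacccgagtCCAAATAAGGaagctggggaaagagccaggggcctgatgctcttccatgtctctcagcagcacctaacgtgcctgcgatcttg
Fhl2, first start: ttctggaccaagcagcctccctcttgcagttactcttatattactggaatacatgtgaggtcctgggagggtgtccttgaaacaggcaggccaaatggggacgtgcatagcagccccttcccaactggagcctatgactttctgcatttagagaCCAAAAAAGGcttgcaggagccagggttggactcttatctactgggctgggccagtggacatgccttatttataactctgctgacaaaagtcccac
Fhl2, second start: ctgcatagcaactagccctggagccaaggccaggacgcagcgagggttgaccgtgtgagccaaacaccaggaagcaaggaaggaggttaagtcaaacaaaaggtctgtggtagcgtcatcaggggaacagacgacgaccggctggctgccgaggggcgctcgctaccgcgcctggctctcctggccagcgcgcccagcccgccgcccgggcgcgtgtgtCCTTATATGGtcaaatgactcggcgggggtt
Srf held 2 CArG boxes, beginning 82 and 62 bases before the start, and the Ets core 122 bases before it. The box of Hopx began 83 bases before the start, and those of Fhl2 began 96 and 31 bases before the first and second start. The other Hopx start, and all starts of Mkl1, Mkl2, Elk1, Elk3 and Elk4, held no exact CArG box, while the Ets core lay before starts of Mkl2 and Elk4. No match says only that these letters are not in these windows.

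**Figure D1:**
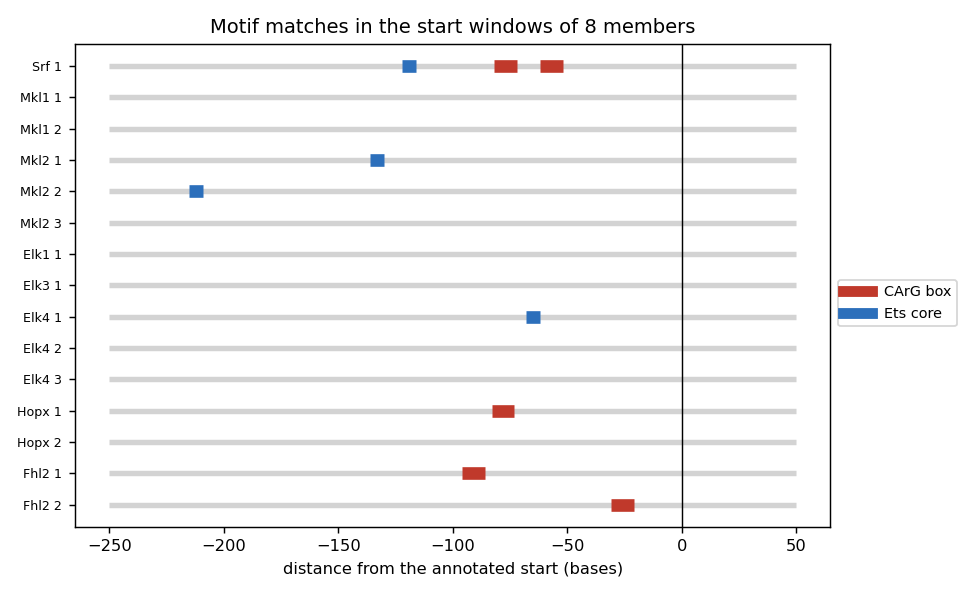
Matches to the CArG box (red) and the Ets core CCGGAA (blue) in the 15 start windows of 8 genes, with each window numbered after its gene. The x axis gives the distance in bases from the annotated start, and CArG boxes are seen in the Srf window, in 1 Hopx window and in both Fhl2 windows.

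Srf (chromosome 17 of GRCm38, 46548329 to 46556175) was the gene placed in the vector and was examined first. It stood at 360 CPM in SRF-OE2 and at 748 CPM in SRF-OE3, against 67.3 and 85.1 CPM in GFP2 and GFP3. The library labelled GFP1 had 338 CPM. The groups did not overlap, but the library labelled GFP1 came close to SRF-OE2 and lay far above GFP2 and GFP3. The study's construct carried an Srf cDNA, so reads from the endogenous gene and from the vector cannot be told apart. Of its 2893 annotated exonic bases, 1512 are coding. With the 5 libraries its log2 fold change was 1.76 with a standard error of 0.71 and a 95% interval of 0.06 to 3.47, and edgeR's quasi-likelihood test gave an adjusted p of 0.36. Leaving out SRF-OE3 gave 1.13. Without the library labelled GFP1, the log2 fold change was 2.87 (standard error 0.37, interval 1.97 to 3.77, edgeR adjusted p = 0.044), or 7.27-fold between the group means. Because the library was left out for its own Srf value, this p is no independent test of Srf. That call was lost with a minimum of 10 counts in every library (adjusted p = 0.0503), and also on leaving out GFP2 (0.23) or GFP3 (0.20), over a range of 7.6e-58 to 0.23 across the alternatives of edgeR and DESeq2.

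**Figure D2:**
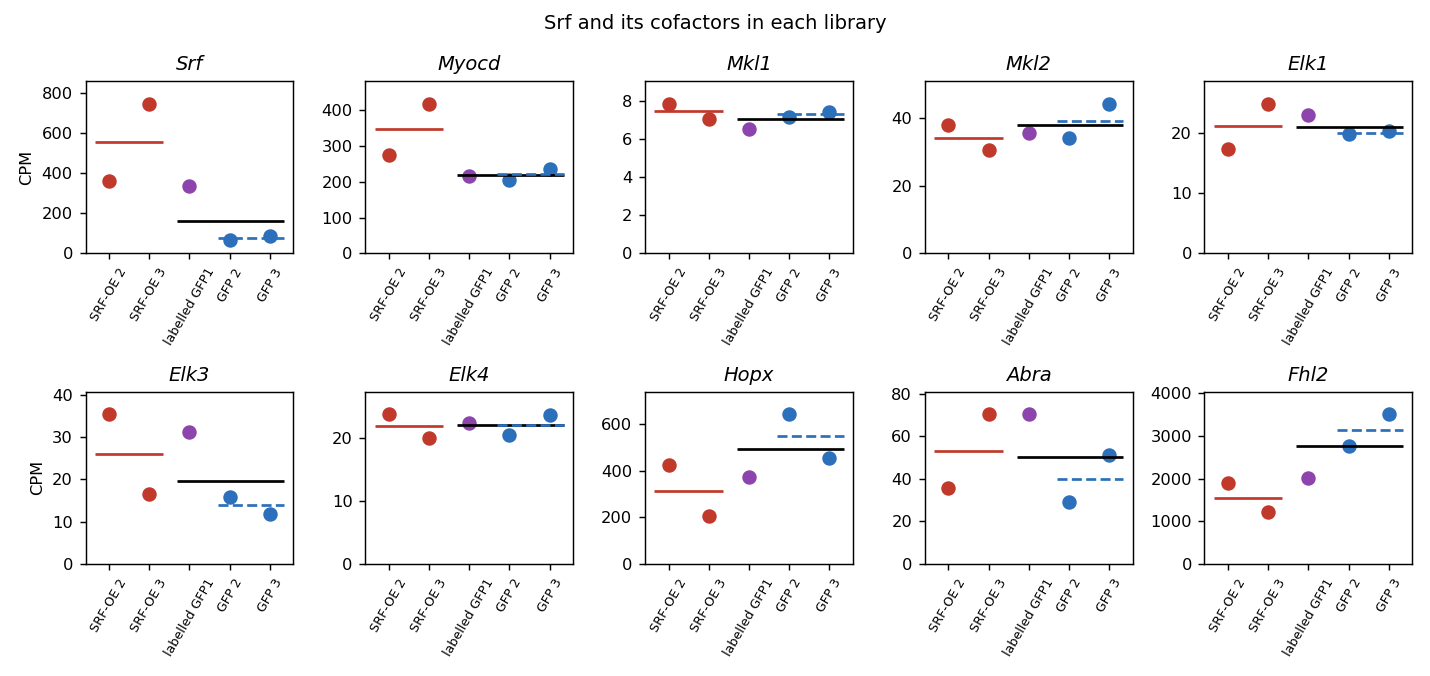
Expression of the 10 genes in each library, in CPM on linear axes that start at 0. Points are single libraries, red lines are the SRF-OE mean of 2 libraries, black lines the GFP mean of 3 and dashed blue lines the mean of GFP2 and GFP3, and the library labelled GFP1 (purple) lies near SRF-OE for Srf but among GFP for Myocd.

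Across the 10 genes, 0 passed an adjusted p under 0.05 with the 5 libraries, as did 0% of the 13754 genes tested by edgeR. At an unadjusted p under 0.05 there were 3 of the 10, Srf, Myocd and Fhl2, against 13.9% of all genes. Without the library labelled GFP1, 1 of the 10 (Srf) passed, against 2.95% of 13397 genes, and 3 had an unadjusted p under 0.05, against 28.3%. The SRF-OE and GFP libraries did not overlap for 2 genes that were higher in SRF-OE (Srf and Myocd) and 1 that was lower (Fhl2) in the 5 libraries, while 16.1% and 17.3% of all tested genes stood apart in these directions. Without the library labelled GFP1, 3 genes (Srf, Myocd and Elk3) stood apart higher and 2 (Hopx and Fhl2) lower, against 30.8% and 30.2% of all genes. Leaving Srf aside, the median log2 fold change of the 9 partners was 0.0062 with the 5 libraries and 0.037 without the library labelled GFP1, next to 0.030 and 0.035 over all tested genes.

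Myocd (chromosome 11, 65176561 to 65269989), the coactivator restricted to cardiac and smooth muscle, was the member of its family with the highest level. It was at 275 CPM in SRF-OE2, 419 CPM in SRF-OE3, and 215, 205 and 236 CPM in the libraries labelled GFP1, GFP2 and GFP3. Both SRF-OE libraries lay above all 3 GFP libraries, and the library labelled GFP1 fell between the other GFP libraries, unlike for Srf. SRF-OE averaged 347 ± 102 CPM (SD, n = 2) against 219 ± 15.7 CPM (SD, n = 3) for GFP. The log2 fold change was 0.66 (95% interval 0.20 to 1.13, edgeR adjusted p = 0.35), against 0.66 with the library labelled GFP1 left out (edgeR adjusted p = 0.12). DESeq2, the study's tool, called Myocd higher with the 5 libraries (adjusted p = 0.036, over a range of 0.036 to 0.77 across the alternatives). Without SRF-OE3 the log2 fold change was 0.32, so its size depends on that library. As a share of the summed CM marker CPM, Myocd was 0.358% and 0.573% in SRF-OE and 0.202% to 0.263% in GFP.

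Mkl1 (chromosome 15, 81012281 to 81190757) and Mkl2 (chromosome 16, 13256481 to 13417529) encode the actin-regulated coactivators. Mkl1 was at 7.86 and 7.04 CPM in SRF-OE2 and SRF-OE3 and at 6.51, 7.16 and 7.42 CPM in the libraries labelled GFP1, GFP2 and GFP3, from 94 to 161 counts per library. Mkl2 was at 37.9 and 30.5 CPM in SRF-OE and at 35.7, 33.9 and 44.3 CPM in GFP. For both genes the groups overlapped. The log2 fold change of Mkl1 was 0.08, with a 95% interval of -0.40 to 0.57 and an adjusted p of 0.86 from edgeR. That of Mkl2 was -0.15, with an interval of -0.57 to 0.27 and an adjusted p of 0.70 from edgeR. These intervals leave room for differences of either sign, and those without the library labelled GFP1 ran from -0.50 to 0.58 for Mkl1 and from -0.66 to 0.28 for Mkl2.

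Elk1, Elk3 and Elk4 encode the ternary complex factors, of which ELK3 (also named NET) represses its targets until it is phosphorylated. Elk1 (chromosome X, 20933395 to 20950608) was at 17.2 and 24.8 CPM in SRF-OE and at 22.9, 19.7 and 20.3 CPM in GFP, the SRF-OE libraries lying on either side of the GFP libraries. Elk4 (chromosome 1, 132007607 to 132032612) was at 23.7 and 19.9 CPM in SRF-OE and at 22.2, 20.4 and 23.6 CPM in GFP, with a full overlap. Their log2 fold changes were 0.0062 (95% interval -0.47 to 0.48) and -0.02 (95% interval -0.39 to 0.36), and 0.081 and -0.0056 without the library labelled GFP1, all with an adjusted p of at least 0.83 from edgeR. The sign for Elk4 was positive with upper quartile scaling and with at least 10 counts in every library. By Xist and Y-linked counts, SRF-OE2 and GFP2 came from females, and these 2 libraries had the lowest Elk1 CPM of the 5, while per length GFP3 lay below GFP2. Elk1 shares 76 exonic bases with Uxt, Elk4 up to 104 with a neighbour, Mkl2 162 with the antisense Gm15738 and Mkl1 10 with Sgsm3, so reads there are uncertain.

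Elk3 (chromosome 10, 93247414 to 93311135) varied most among the ternary complex factors. It was at 35.4 CPM in SRF-OE2, 16.5 CPM in SRF-OE3, and 31.3, 15.9 and 11.8 CPM in the libraries labelled GFP1, GFP2 and GFP3. One library of each group was thus high, and the 2 high libraries were also those with the highest endothelial marker sums, at 977 and 750 CPM, while the other 3 had 384 to 421 CPM. Relative to that sum, Elk3 was at 3.63% and 4.30% in SRF-OE and at 4.17%, 3.82% and 2.81% in GFP. The part of endothelial RNA in the Elk3 difference was not tested beyond these values. The log2 fold change was 0.39 (95% interval -0.74 to 1.53, edgeR adjusted p = 0.71), 0.90 without the library labelled GFP1 (95% interval -0.02 to 1.82, edgeR adjusted p = 0.18), and -0.26 without SRF-OE2. Elk3 shares 316 exonic bases with Cdk17 on the opposite strand, and the strand setting of the counting is not given in the sources used here.

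Fhl2 (chromosome 1, 43123074 to 43196984), a LIM-only protein of the CM that binds SRF and is itself a known SRF target, had the highest level of the 10 genes. It was at 1892 CPM in SRF-OE2, 1212 CPM in SRF-OE3, and 2025, 2777 and 3511 CPM in the libraries labelled GFP1, GFP2 and GFP3. Both SRF-OE libraries lay below every GFP library, and the library labelled GFP1 was the lowest GFP library. SRF-OE averaged 1552 ± 480 CPM (SD, n = 2) against 2771 ± 743 CPM (SD, n = 3) for GFP. The log2 fold change was -0.84 (95% interval -1.59 to -0.08, edgeR adjusted p = 0.36), against -1.01 with the library labelled GFP1 left out (95% interval -1.67 to -0.36, edgeR adjusted p = 0.081). DESeq2 called Fhl2 lower with the 5 libraries (adjusted p = 0.031, over a range of 0.031 to 0.77 across the alternatives). With the study's tool, 4 of the 10 genes received an adjusted p and 2 were called, against 19.2% of the 1167 genes that received one.

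Hopx (chromosome 5, 77086988 to 77115121) encodes a small homeodomain protein that binds SRF and not DNA, and keeps SRF from its targets. It was at 426 and 205 CPM in SRF-OE2 and SRF-OE3, and at 375, 643 and 457 CPM in the libraries labelled GFP1, GFP2 and GFP3. The groups overlapped through the library labelled GFP1 alone. The log2 fold change was -0.64 (95% interval -1.51 to 0.22, edgeR adjusted p = 0.43), against -0.80 with the library labelled GFP1 left out (95% interval -1.68 to 0.08, edgeR adjusted p = 0.21). Without SRF-OE3 it was -0.22 and without SRF-OE2 it was -1.27 on the same scale. Hopx shares 412 of its 1516 annotated exonic bases with the antisense gene Hopxos, so some of its reads may belong there.

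CM markers were also lower in the SRF-OE libraries, beside Fhl2 and Hopx. Of the 8 markers, 7 were lower in both SRF-OE libraries than in GFP2 and GFP3, against 30.2% of all genes. The exception was Myl2, with a log2 fold change of -0.05 in both fits, and with the 5 libraries Myh6 overlapped as well. The summed level of the 8 markers was 76889 and 73062 CPM in SRF-OE, 81677 CPM in the library labelled GFP1, and 100651 and 116876 CPM in GFP2 and GFP3. As a share of that sum, Fhl2 was at 2.46% and 1.66% in SRF-OE and at 2.48%, 2.76% and 3.0% in GFP, still without overlap. Hopx was at 0.554% and 0.280% in SRF-OE and at 0.460%, 0.639% and 0.391% in GFP, with overlap whether or not the library labelled GFP1 was counted. Myh6 was the largest part of the sum, at 40537 and 44087 CPM in SRF-OE and at 43611, 56916 and 68849 CPM in GFP. The paper reports that SRF overexpression lowered myofibril genes. In this sum, such a change and a change of CM content cannot be told apart. Beyond these values, the part of CM content in the Fhl2 and Hopx differences was not tested.

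**Figure D3:**
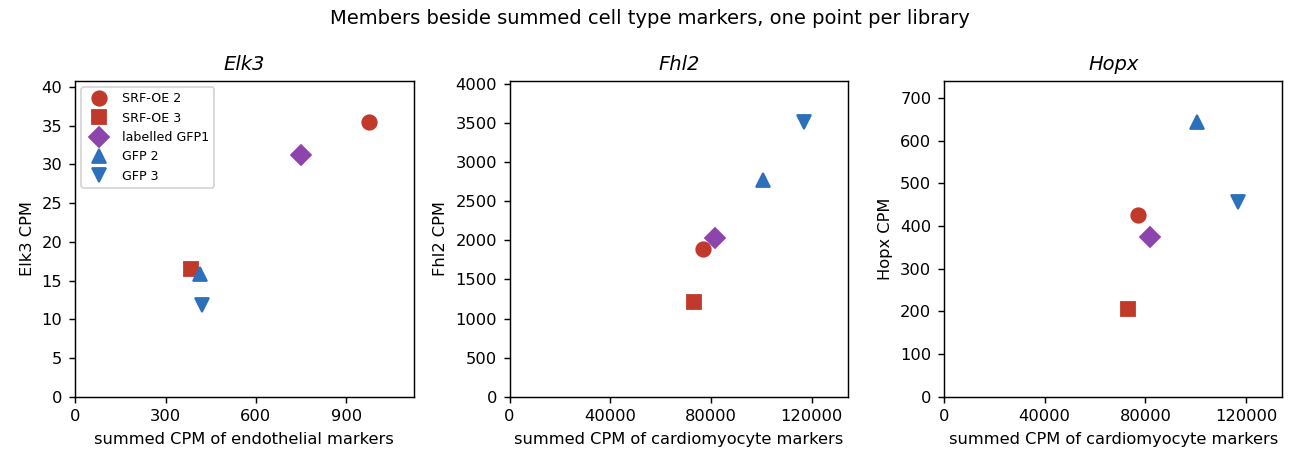
Elk3 against the summed CPM of 12 endothelial markers, and Fhl2 and Hopx against the summed CPM of 8 CM markers, with 1 point per library. SRF-OE2 and the library labelled GFP1 are high for both Elk3 and the endothelial sum, and GFP2 and GFP3 are high for both Fhl2 and the CM sum.

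Abra (chromosome 15, 41864076 to 41869720) encodes STARS, a muscle protein that binds actin and favours nuclear entry of the MKL factors. It was at 35.9 and 70.4 CPM in SRF-OE2 and SRF-OE3, and at 70.3, 28.9 and 51.2 CPM in the libraries labelled GFP1, GFP2 and GFP3. The groups overlapped, and GFP3 exceeded SRF-OE2. The log2 fold change was 0.09 (95% interval -0.91 to 1.08, edgeR adjusted p = 0.93), against 0.42 with the library labelled GFP1 left out (95% interval -0.53 to 1.38, edgeR adjusted p = 0.51).

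**Figure D4:**
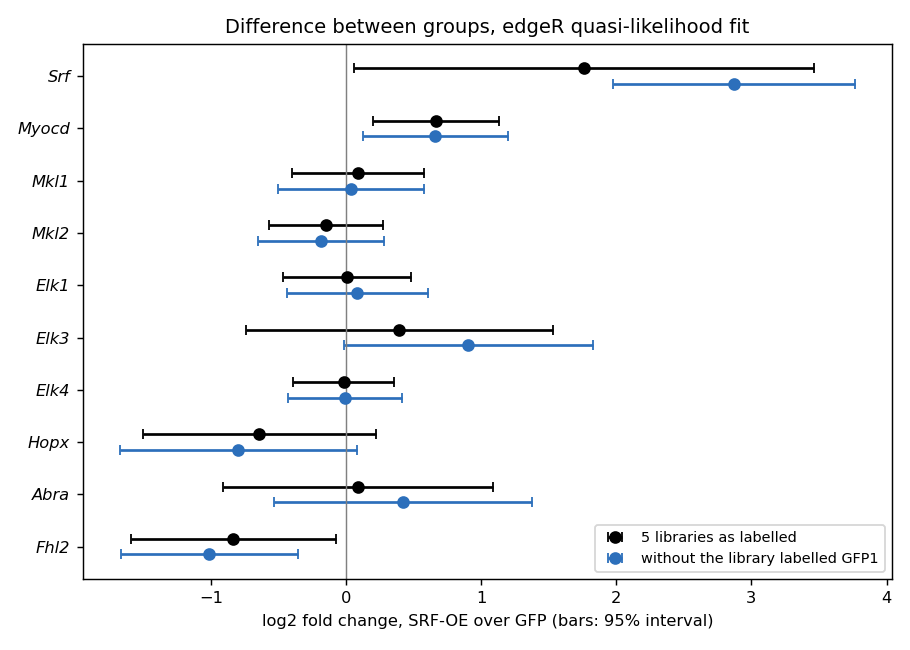
Log2 fold change of each gene between SRF-OE and GFP with its 95% interval, from edgeR, for the 5 libraries as labelled (black) and for the 4 that remain when the library labelled GFP1 is left out (blue). The intervals of Srf, Myocd and Fhl2 exclude 0 before adjustment in both fits, and those of the other 7 genes include it.

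The pair of SRF-OE libraries also differed between themselves. SRF-OE3 had 2.08 times the Srf level of SRF-OE2, 1.96 times its Abra, 1.52 times its Myocd and 1.44 times its Elk1, but 0.466 times its Elk3, 0.481 times its Hopx and 0.641 times its Fhl2. The library with more Srf thus also had more Myocd and Abra and less Hopx and Fhl2, in a single pair that allows no test. The library labelled GFP1, set against the mean of GFP2 and GFP3, had 4.43 times the Srf, 2.26 times the Elk3 and 1.75 times the Abra level, 0.975 times the Myocd level, 0.682 times the Hopx and 0.644 times the Fhl2 level. It thus had more Srf, Elk3 and Abra and less Hopx and Fhl2 than both other GFP libraries, while its Myocd lay between theirs. Over the 5 libraries, Pearson's r with Srf on log2(CPM + 1) ranged from -0.94 for Fhl2 and -0.88 for Hopx to 0.76 for Myocd, given as a description of 5 points that share the group difference.

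Levels of different genes were compared per length, as length-scaled levels (TPM) from the counts and the column of gene lengths. Over the 5 libraries the mean was 2768 TPM for Fhl2, 532 TPM for Hopx, 159 TPM for Srf, 104 TPM for Myocd, 56.9 TPM for Abra, 11.6 TPM for Elk4, 11.5 TPM for Elk1, 10.3 TPM for Elk3, 7.82 TPM for Mkl2 and 3.03 TPM for Mkl1. The ranges of neighbours in this order overlapped from Hopx to Abra and from Elk4 to Mkl2. Fhl2 stood above Hopx, Abra above Elk4, and Mkl2 above Mkl1 in all 5 libraries without overlap. With annotated exon lengths the first 5 and the last kept their places, while the 4 genes between them changed order. Mkl2 exceeded Mkl1 by 2.22 to 3.06 times in TPM, and Myocd exceeded both together by 9.07 and 16.6 times in SRF-OE and by 7.06 to 7.81 times in GFP. The TPM of Srf was 1.47 and 2.11 times that of the 3 myocardin family genes together in SRF-OE and 1.74 times in the library labelled GFP1, but 0.362 and 0.395 times in GFP2 and GFP3. With annotated exon lengths these ratios were 2.58, 3.71, 3.03, 0.630 and 0.686, in the same order. Against the 3 ternary complex factors together it was 4.47 and 11.2 times in SRF-OE, 4.15 times in the library labelled GFP1, and 1.11 and 1.39 times in GFP2 and GFP3, or 2.25 to 22.8 times over the 5 libraries with annotated exon lengths.

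**Figure D5:**
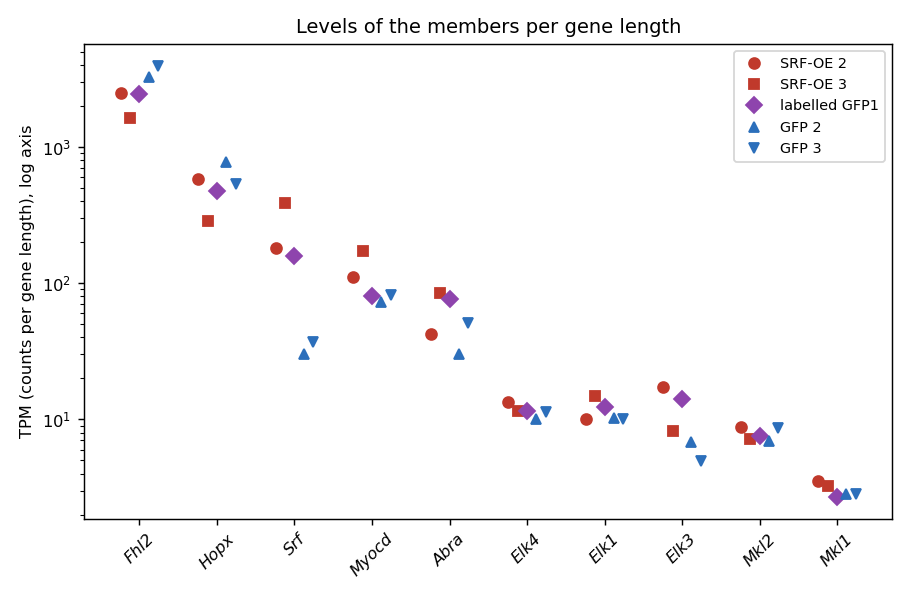
Levels of the 10 genes in TPM on a log axis, in descending order of their mean, with 1 symbol per library. Fhl2 is highest and Mkl1 lowest in every library, and Srf spans 30.0 to 387 TPM while Mkl1 spans 2.69 to 3.54 TPM.

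Genes that act on SRF or through it were counted in 5 lists. With edgeR, 0 of their genes passed with the 5 libraries. DESeq2 called 6 of the 40 list genes that received an adjusted p, against 19.2% of all genes that received one. Without the library labelled GFP1, 11 of 110 passed with edgeR, against 2.95% of all genes. That count was 5 with upper quartile scaling, 3 with a minimum of 10 counts in every library, and 0 on leaving out GFP2 or GFP3. Of 22 genes that link actin dynamics to the MKL factors, 0 passed with the 5 libraries (1 higher and 0 lower at an unadjusted p under 0.05, against 13.9% of all genes) and 2 rose without the library labelled GFP1 (against 2.95%), with a median log2 fold change of 0.12 and 0.15, next to 0.030 and 0.035 over all genes. Those 2, named after their values were seen, were Tmsb4x, which binds monomeric actin (log2 fold change 0.60 with the 5 libraries and 1.30 without that library), and Cfl1, which severs filaments (0.44 and 0.76). The 3 genes of the list with the smallest p in the 5 libraries were Mical2, an oxidase that depolymerises nuclear actin (0.59 and 0.67), Ablim1, an actin-binding LIM protein (-0.32 in both fits), and Scai, a repressor of MKL1 (0.35 and 0.39).
Of 18 genes of ERK signalling to the ternary complex factors, 0 passed in either fit, and 0 were higher and 1 lower at an unadjusted p under 0.05 with the 5 libraries, against 13.9% of all genes. Hras1 had log2 fold changes of -0.26 and -0.33 and Mapk3, which encodes ERK1, of 0.45 and 0.75, and the list's median was -0.02, or 0.03 without the library labelled GFP1.

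Of 22 other nuclear partners of SRF, 0 passed with the 5 libraries (3 higher and 0 lower at an unadjusted p under 0.05, close to the 13.9% of all genes) and 3 rose without the library labelled GFP1 (against 2.95%), while the median log2 fold change was -0.05 and -0.09. Csrp1, a LIM protein that bridges SRF and GATA factors, was at 119 and 255 CPM in SRF-OE and at 103, 25.7 and 24.9 CPM in the libraries labelled GFP1, GFP2 and GFP3, with a log2 fold change of 1.86, and 2.89 without the library labelled GFP1 (edgeR adjusted p = 0.35 and 0.043). Klf4, a repressor of smooth muscle genes, had values of 0.98 and 1.30 and was the second to pass. The third, named after its values were seen, was Fhl1, a LIM-only relative of Fhl2, at 703 and 2871 CPM in SRF-OE, 1731 CPM in the library labelled GFP1, and 120 and 138 CPM in GFP2 and GFP3. Its log2 fold change was 1.43 with the 5 libraries, with a 95% interval of -1.47 to 4.34, and 3.80 without the library labelled GFP1. Tead1, which binds the MCAT element, had log2 fold changes of 0.38 and 0.49.

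Among 34 targets of the actin class, 0 passed with the 5 libraries (10 higher and 2 lower at an unadjusted p under 0.05, against 13.9% of all genes), and 5 rose and 1 fell without the library labelled GFP1 (against 2.95%). Their median log2 fold change was 0.48 and 0.71, the highest of the 5 lists. Tagln, an actin-bundling protein of smooth muscle, had a log2 fold change of 2.30 and Cald1, caldesmon, one of 1.08, and both passed without the library labelled GFP1 (2.92 and 1.37). Flna, filamin A, had 0.65 and 0.70 and did not pass. Named after their values were seen, Pdlim7 (1.65 with the 5 libraries and 2.55 without that library), Ankrd1 (1.12 and 1.49) and Tgfb1i1 (1.10 and 1.49) were the others that rose, and Acta2, smooth muscle actin, fell (-1.12 and -1.45). Beside this list, the summed smooth muscle and pericyte markers were at 897 and 779 CPM in SRF-OE and at 828, 1168 and 1654 CPM in GFP. Acta2, Tagln, Cnn1 and Myh11 belong to both lists. Acta2 was the largest part of the sum, at 530 and 372 CPM in SRF-OE and at 463, 1018 and 1464 CPM in GFP. Without the library labelled GFP1, 5 of these 9 markers stood apart higher and 1, Acta2, lower, against 30.8% and 30.2% of all genes. The summed fibroblast markers were at 821 and 422 CPM in SRF-OE and at 441, 356 and 307 CPM in GFP. All 8 fibroblast markers were higher in both SRF-OE libraries than in GFP2 and GFP3, against 30.8% of all genes. With the 5 libraries as labelled, Col1a1, Col3a1, Dcn and Lum overlapped between the groups. The part of both sets of markers in the list was not tested.
Of 17 immediate early targets, 15 were tested with the 5 libraries and 14 without the library labelled GFP1, and 0 passed in either fit. With the 5 libraries, 1 higher and 5 lower targets had an unadjusted p under 0.05, against 13.9% of all genes. Without the library labelled GFP1 there were 1 higher and 3 lower targets, close to the 28.3% of all genes. Their median was -0.22 and -0.17, with Fos at -1.23 and -1.32, Ier3 at -0.43 and -0.40, and Ctgf at 1.06 and 1.44. The actin class and the immediate early class thus had medians of opposite sign, a difference that was not tested.

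The genes whose pattern was most like that of Srf were sought among 8522 tested genes with a mean of at least 10 CPM. By Pearson's r over the 5 libraries they were Acap2, 1110038F14Rik, Trpv2, Hip1r and Stx6, with r from 0.998 to 0.999. Trpv2, a calcium-permeable channel, varied most, at 20.5 and 46.7 CPM in SRF-OE, 17.4 CPM in the library labelled GFP1, and 1.84 and 2.37 CPM in GFP2 and GFP3. The other 4 genes spanned 0.70 to 1.01 on the log2(CPM + 1) scale, and Trpv2 spanned 4.07. Since they were chosen for following Srf, no test of them is given.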

How the data were processed

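RNA of GFP+ CMs (10 ng per sample) was made into SMART-Seq v4 and Nextera XT libraries and sequenced single-end. Alignment by the authors used STAR 2.5.3a and mm10, counting per gene used featureCounts (Subread 1.5.2), and the deposited values are raw counts of 5 libraries plus a column of gene lengths; the strand setting is not given in the sources used here. Library totals ran from 14137433 to 23159631 counts. The 10 genes and all lists were chosen with earlier results of these data known.

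Counts were filtered (filterByExpr), scaled (TMM) and tested with edgeR 4.0.16 (quasi-likelihood, Benjamini-Hochberg adjustment over all tested genes, threshold 0.05), with the 5 libraries as labelled and with 4 libraries, without the library labelled GFP1. DESeq2 1.42.0, the study's tool, other scalings, filters, a replicate block, a sex term and leaving out each library were alternatives. CPM used the TMM-scaled library sizes, TPM the counts per gene length. The length column lay within 5% of the merged GENCODE exon length or of an annotated transcript for 73.8% of 20897 genes. For the merged exon length alone the share was 25.5%. For Srf the column held 4093 bases, more than its 2893 merged exonic bases, so its TPM depends on the length used. All 113 list genes and 49 of 50 markers were found. Besides the 10 genes, those named are the 5 with the highest Pearson correlation with Srf (mean of at least 10 CPM) and the 3 with the smallest p in each list, of which 1 is not reported here. Ratios of TPM with annotated exon lengths were added after seeing the data.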

Additional observations from a re-analysis of the deposited data

How the results depend on the processing

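With the 5 libraries as labelled, the main fit called 0 of 13754 genes, DESeq2 224 of 1167 and the replicate block 1014 of 13754. Of the 10 genes tested by the main fit 0 were called, with DESeq2 2 of 4 and with the block 2 of 10. Of the list genes the counts were 0 of 111, 6 of 40 and 24 of 111, in the same order. DESeq2 called Myocd (0.66) and Fhl2 (-0.85), and the block called Srf (2.78) and Hopx (-0.88). The library labelled GFP1 has no SRF-OE partner in the block, so it adds nothing to the group difference there. The block's log2 fold changes thus rest on the other 4 libraries, and Srf was at 2.78 with or without the library labelled GFP1. Leaving out 1 library gave 0 to 395 genes, 0 to 1 of the 10 and 0 to 11 list genes, each highest without the library labelled GFP1. Without the library labelled GFP1, the main fit called 395 of 13397 genes, 1 of the 10 and 11 of 110 list genes. DESeq2 called 1685 of 13559, 4 of 10 and 33 of 111. Upper quartile scaling gave 97 of 13397, 1 of 10 and 5 of 110, and no filter 2963 of 21407, 5 of 10 and 48 of 113. With at least 10 counts they were 64 of 12142, 0 of 10 (Srf at 2.89) and 3 of 108. The block and sex as a term, which are the same split there, gave 939 of 13397, 1 of 10 and 24 of 110. Leaving out a further library, where a lone library is assumed to vary like the others, gave 0 to 3278 genes, 0 to 4 of the 10 and 0 to 47 list genes, lowest without GFP2 or GFP3. With 1 library left out, log2 fold changes with the 5 libraries ran from 1.13 to 2.87 for Srf, -0.29 to 0.24 for Elk1, -0.26 to 0.90 for Elk3, -0.15 to 0.095 for Elk4 and -0.49 to 0.49 for Abra. Without the library labelled GFP1 they ran from 2.24 to 3.30 for Srf, -0.046 to 0.11 for Mkl1, -0.22 to 0.32 for Elk1, -0.14 to 0.11 for Elk4 and -0.15 to 0.87 for Abra. Elk4 turned to 0.032 and 0.0061 with the 5 libraries, and to 0.054 and 0.021 without the library labelled GFP1, with upper quartile scaling and at least 10 counts. The cause was not tested. The replicate numbers are not known to pair the samples. Deviations from the group means correlated at 0.41 for number 2 and -0.086 for number 3, and at 0.224 without the library labelled GFP1. The deviations of 2 SRF-OE libraries mirror each other, and both libraries of number 2 came from females. These values therefore cannot decide whether the numbers pair the samples, and the block is a hint only. With annotated exon lengths, 6 of 10 TPM levels moved by more than their SD. These moves include a change of scale, since that TPM was summed only over genes with an annotated length. Mkl2 went from 7.82 to 13.5 TPM with 8987 bases in the length column and 8990 annotated. Hopx went from 532 to 913 TPM with 1510 and 1516 bases. With 2 SRF-OE libraries, and 94 to 161 counts of Mkl1, small differences were not detectable.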
